A study of Mus musculus with 9 samples.

Results

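The set described here is the line-to-line variation among 6 recurrent lines of the mouse prostate cancer cell line MYCCaP. Of 22180 genes named on the array, the 14583 with a mean log2 intensity of 6 or more over the 6 lines were ranked by their standard deviation (SD) over those lines, with treatment ignored. The remaining 7597 genes fell below that floor and were not ranked. The 6 lines hold 6 of the 9 arrays in the series. Vehicle 1, 2 and 3 came from mice that received vehicle, and AZD1208 1, 2 and 3 from mice that received AZD1208, an inhibitor of the PIM kinases. The series concerns recurrent tumours in castrated mice, and the lines were grown without dihydrotestosterone (DHT), an androgen. The other 3 arrays are technical replicates of the parental line, grown with DHT. All 9 arrays share the MYCCaP background, which comes from a tumour of a mouse with a prostate-specific MYC transgene. The sources used here state neither the age of the mice nor whether 2 lines could share a mouse.

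As background, lines grown out of separate tumours, or of separate parts of one, start from different founder cells and can settle into different stable expression states. Groups of genes that follow one another across such lines often share a programme: inflammatory genes under NF-kB, secreted matrix proteins of mesenchymal cells, contractile genes under serum response factor and the YAP/TEAD factors, or keratins of the basal and squamous layers. The SD of a gene over lines shows how far its measured level differed between the arrays of these lines. Whether such a difference is a programme held stably by the cells was not tested.

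Every value is a log2 intensity, so a difference of 1 is a doubling. The SD chose the genes, and each line was measured on 1 array. Levels, folds and counts are therefore a description, with no test between lines. The 3 technical arrays give the only repeat measurement, and the labels do not say whether they include separate cultures or extractions. The values carry no detection calls, so a fold against a dim level may be understated. Array medians lay between 6.22 and 6.36. AZD1208 3 had the narrowest interquartile range, 2.87 against 2.98 to 3.12 on the other arrays.

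The lines differed among themselves by more than the technical arrays did. The median SD of a ranked gene was 0.24 over the 6 lines and 0.09 over the 3 parental arrays, a ratio of 2.61. The line SD was above the technical SD in 13447 genes, 92.2% of those ranked. It was at least 2 times the technical SD in 9638 genes (66.1%). A line SD of 1 or more was found in 159 genes, 1.09% of those ranked, and a technical SD of that size in 0, the highest being 0.77. At that limit, Adgrf1, an adhesion G protein-coupled receptor, lay just inside with a SD of 1.0015 and the microRNA gene Mir505 just outside with 0.998. In 1181 ranked genes at least 2 parental arrays held the same deposited value, and in 142 all 3 did, which lowers their technical SD. Among the 13402 genes with 3 different parental values, 91.9% had a line SD above the technical SD.

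**Figure D1:**
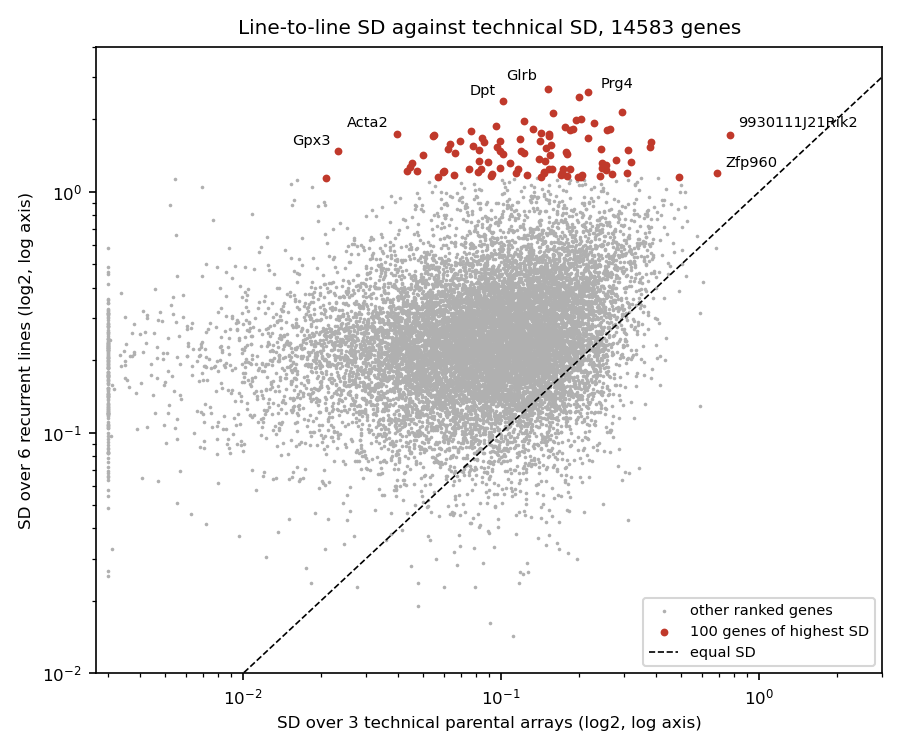
Each point is 1 of the 14583 ranked genes, with its SD over the 3 technical parental arrays (log2, log axis) against its SD over the 6 recurrent lines (log2, log axis); red marks the 100 genes of highest line SD, the dashed line equal SD, and 183 genes with a technical SD of 0.003 or less are drawn at the left edge. All 100 red points lie above the dashed line, and 9930111J21Rik2 and Zfp960 lie nearest to it.

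The 100 genes of highest SD had line SDs from 1.15 to 2.68 (median 1.44) and technical SDs from 0.02 to 0.77 (median 0.14). The last of them was Hspb7, a small heat shock protein gene, at 1.147, and the next gene outside was Atrx, a chromatin remodeller gene, at 1.146. Between the highest and lowest line these genes spanned 5.88-fold to 149-fold, with a median of 12.5-fold. In 8 of them the technical SD was over 0.3. The parental level lay inside the range of the 6 lines in 63 of the 100, below all lines in 33 and above all lines in 4. Among all ranked genes the shares were 76.7% inside, 12.4% below and 10.9% above.

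Most of the variable genes fell into 3 groups when the 100 were clustered by their correlation over the 6 lines. The largest held 53 genes and was highest in vehicle 1, AZD1208 2 and AZD1208 1. A group of 32 genes was highest in AZD1208 2, and a group of 9 genes was low in the lines where the largest group was high. The last 6 genes formed smaller sets, and every group was built from the same values that are described. Vehicle 1, AZD1208 1 and AZD1208 2 were the 3 highest lines in 47 of the 100 genes, where 8.86% of all ranked genes had that order. They were the 3 lowest in 8 of the 100, against 10% of all ranked genes. This order of lines cuts across the treatment labels.

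**Figure D2:**
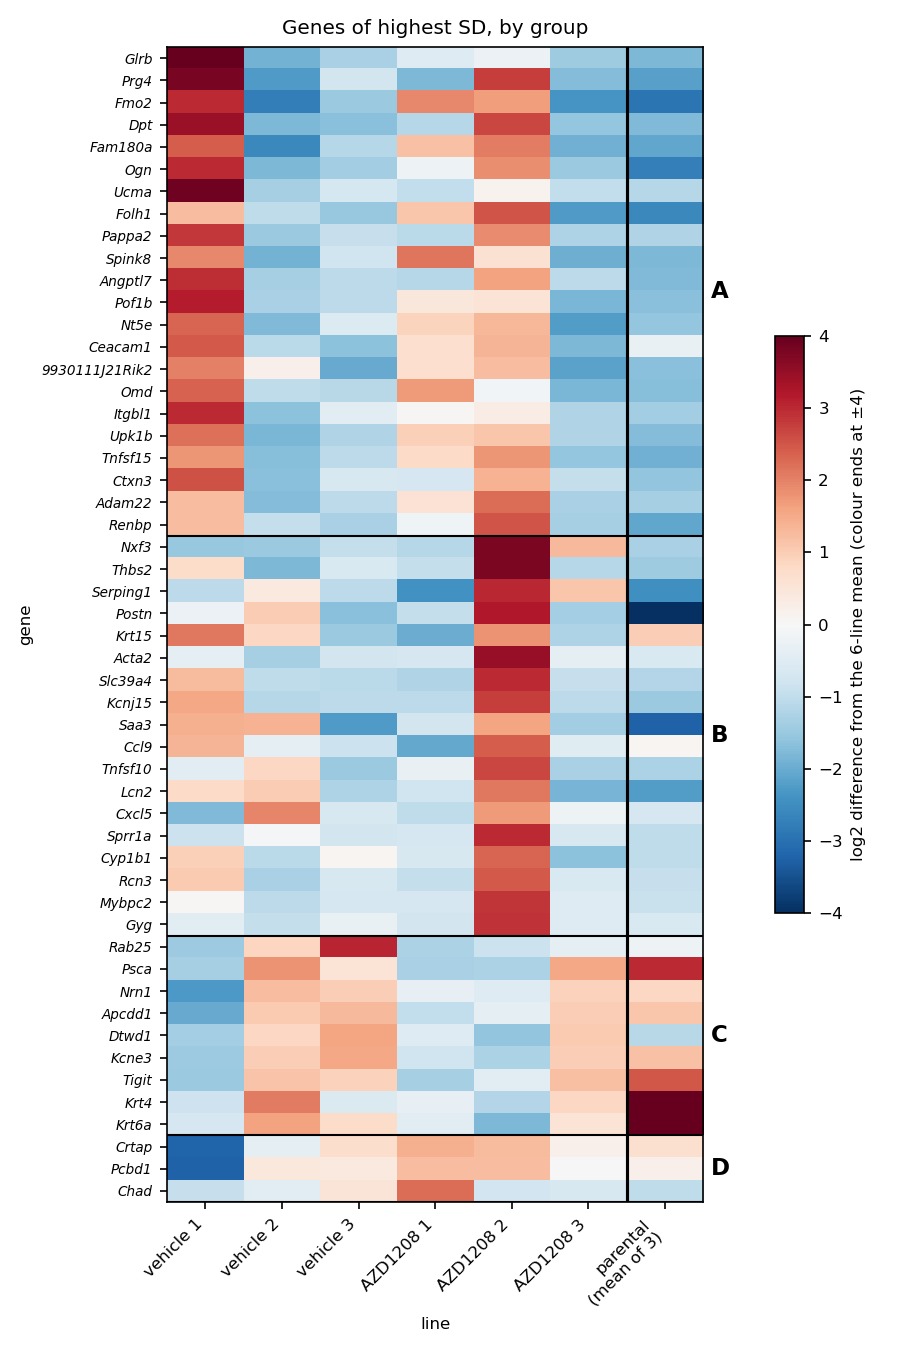
Rows are genes of highest SD in 4 of the groups (A, the 53-gene group, 22 shown; B, the 32-gene group, 18 shown; C, all 9 genes; D, all 3 genes) and columns the 6 lines and the parental mean of 3 arrays. Colour is the log2 difference from the 6-line mean and saturates at 4; group A is red in vehicle 1, group B in AZD1208 2, and Krt4 and Krt6a of group C are darkest in the parental column.

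The 53-gene group averaged 1.82 above its 6-line mean in vehicle 1, 1.15 above it in AZD1208 2 and 0.58 above it in AZD1208 1. The other lines averaged -0.91 (vehicle 3), -1.24 (vehicle 2) and -1.39 (AZD1208 3), and the parental line -1.60. The highest line was vehicle 1 for 34 of its genes, AZD1208 2 for 13 and AZD1208 1 for 6. The median pairwise correlation in the group was 0.80 over the 6 lines, which is high by construction because the group was formed on it. Pairs from a sample of 1459 ranked genes, not grouped in this way, had a median of 0.01. The parental level lay below all lines in 20 of the 53 genes and inside their range in 33.

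Its leading genes encode secreted matrix and surface proteins, metabolic enzymes and a channel subunit. Glrb, the beta subunit of the glycine receptor, had the highest SD of all, 2.68. Its level was 11.86 in vehicle 1, 4.65 in vehicle 2, 5.24 in vehicle 3, 6.02 in AZD1208 1, 6.30 in AZD1208 2 and 5.12 in AZD1208 3, a 149-fold range set by vehicle 1 alone. The parental mean was 4.73, within the range of the dim lines. Prg4, which encodes the joint lubricant lubricin, was high in vehicle 1 (11.65) and AZD1208 2 (10.62), and lay between 5.58 and 7.13 in the other 4 lines. Dpt, the matrix protein dermatopontin, had the same pair of high lines, 11.25 in vehicle 1 and 10.48 in AZD1208 2, with the other 4 lines between 6.03 and 6.68. Fmo2, a flavin-containing monooxygenase, was high in 3 lines: vehicle 1 (12.08), AZD1208 1 (11.01) and AZD1208 2 (10.76). In vehicle 2, vehicle 3 and AZD1208 3 it was 6.33, 7.59 and 6.73, a 53.6-fold range in all. These 4 genes thus show 3 different sets of high lines within 1 group: vehicle 1 alone, vehicle 1 with AZD1208 2, and all 3.

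The small leucine-rich proteoglycans Ogn (osteoglycin) and Omd (osteomodulin) are neighbours in the RefSeq gene order, and both were among the 100. Ogn was 10.79 in vehicle 1, 9.66 in AZD1208 2 and 7.60 in AZD1208 1, with the other 3 lines between 6.0 and 6.42. Omd was 9.45 in vehicle 1 and 8.80 in AZD1208 1 but 6.99 in AZD1208 2, with the other lines between 5.27 and 6.07. Their values correlated at 0.75 over the 6 lines, so the pair shared vehicle 1 and differed in which AZD1208 line came next. Fmo1 and Fmo2, also neighbours, correlated at 0.95. The third neighbouring pair among the 100, Gask1b and Glrb, correlated at -0.01. The median for next neighbours was 0.22 over 14475 pairs of ranked genes. All 3 pairs among the 100 belong to the 53-gene group, which was formed on correlation and had a median pairwise value of 0.80. Their values therefore say nothing about the effect of being neighbours.

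Ucma, a cartilage matrix protein, was 11.60 in vehicle 1 and between 6.39 and 7.84 in the other lines. Itgbl1, an integrin beta-like secreted protein, was 9.89 in vehicle 1 and 5.26 to 7.20 elsewhere. Pof1b, an actin-binding protein of epithelial cells, was 10.63 in vehicle 1 and 5.66 to 8.04 elsewhere. All 3 depended on that line: without vehicle 1 the SD of Ucma went from 1.97 to 0.55, that of Itgbl1 from 1.63 to 0.83 and that of Pof1b from 1.82 to 1.08. Angptl7, an angiopoietin-like secreted protein, was 11.22 in vehicle 1 and 9.85 in AZD1208 2 against 6.92 to 7.21 elsewhere, and its SD went from 1.82 to 1.23 without vehicle 1. Pappa2, a protease that cleaves insulin-like growth factor binding proteins, had the same pair of high lines, at 9.60 and 8.69, with the others between 5.30 and 5.86.

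Folh1, which encodes prostate-specific membrane antigen, was 9.67 in vehicle 1, 9.52 in AZD1208 1 and 10.93 in AZD1208 2. It was 7.40 in vehicle 2, 6.90 in vehicle 3 and 6.15 in AZD1208 3, and 5.84 in the parental line. The 3 high lines did not overlap with the other 3, and the span was 27.5-fold. Nt5e, the surface enzyme that makes adenosine from AMP, ran in the same order of sets, from 9.69 to 11.12 in those 3 lines and from 6.54 to 8.23 in the others. Tnfsf15, a cytokine of the tumour necrosis factor family, was 8.88 to 9.89 against 6.40 to 7.09. Upk1b, a uroplakin of the urothelial surface, was 9.18 to 10.42 against 6.38 to 7.01. Spink8, a secreted Kazal-type protease inhibitor, was 9.12 to 10.65 against 6.55 to 7.71, and Fam180a 9.71 to 10.94 against 5.93 to 7.39. Ceacam1, a cell adhesion receptor, was 9.42 to 11.20 against 6.95 to 7.66, with the parental line between, at 8.44. Its near-identical copy Ceacam2 makes the assignment of its probes uncertain.

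The 32-gene group followed AZD1208 2. Its mean deviation was 2.48 in AZD1208 2 and 0.17 in vehicle 1, and lay between -0.95 and -0.19 in the other 4 lines. AZD1208 2 was the highest line in 30 of the 32 genes, a count that is high by construction. The median pairwise correlation, on which the group was formed, was 0.78 over the 6 lines. The parental level lay below all lines in 12 genes and inside the range in 20. The group joined matricellular proteins, contractile genes and inflammatory genes. Muscle markers were also highest in AZD1208 2 as a list, with a mean level of 6.76 over 8 genes against 6.25 to 6.6 in the other lines. Acta1, the skeletal muscle actin, was 8.71 in AZD1208 2 and 7.24 to 7.77 elsewhere, and Des (desmin) was 7.57 and 6.36 to 6.67. Actn3, a muscle actinin, was 7.79 and 6.81 to 7.38. Other members of the list did not follow. The muscle markers Myh4 (5.81, against 6.12 to 6.30) and Ckm (6.17, against 6.18 to 6.95) were lowest in AZD1208 2. Tnnt3, a troponin, was highest in vehicle 1 at 9.07, and Mylpf (4.92 to 5.49) was highest in vehicle 2. Myh1 was 4.74 to 5.07 in all lines. The part of muscle cells in the contractile genes was not tested.

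Thbs2, the matricellular protein thrombospondin-2, was 11.49 in AZD1208 2, 8.46 in vehicle 1 and between 5.96 and 7.14 in the other 4 lines. Postn, which encodes periostin, was 12.72 in AZD1208 2, 10.53 in vehicle 2 and 9.30 in vehicle 1, and 7.86 to 8.58 in the other 3. The parental mean of Postn was 5.36, below every line. Acta2, the smooth muscle alpha-actin, was 11.87 in AZD1208 2 and between 7.05 and 8.0 in the other 5 lines, around the parental 7.78. Its technical SD was 0.04. Without AZD1208 2 the SD of Acta2 went from 1.75 to 0.39, that of Thbs2 from 2.02 to 0.93 and that of Postn from 1.83 to 1.06. Nxf3, of the nuclear RNA export factor family, was 10.05 in AZD1208 2 and 7.57 in AZD1208 3 but only 4.77 to 5.34 in the other lines. Without AZD1208 2 its mean fell below the floor, as that of Glrb did without vehicle 1.

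Slc39a4, a zinc importer, was 10.54 in AZD1208 2 and 8.85 in vehicle 1, with the other 4 lines between 6.35 and 6.63. Kcnj15, an inward rectifier potassium channel, had the same shape, at 10.65 and 9.41 against 6.74 to 6.82. Without AZD1208 2 their SDs went from 1.73 to 1.05 and from 1.71 to 1.17. Krt15, a keratin of basal epithelial cells, was 10.42 in vehicle 1, 10.12 in AZD1208 2 and 9.14 in vehicle 2. In vehicle 3, AZD1208 1 and AZD1208 3 it was 6.83, 6.34 and 7.08. The parental level of Krt15, 9.31, lay with the high lines.

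Promoter sequences are shown for 4 genes of this group as examples of its contractile, stress and inflammatory members that hold a match to a short motif. They are the 200 bases before the start listed by RefSeq (GRCm38.p6), 5′ to 3′ on the gene's strand, and were chosen after the values were seen. Capitals mark GGAATG (a TEAD motif), TGANTCA (an AP-1 motif), TTGCNNAA (a C/EBP-type motif) or TATAAA (the usual core promoter box), searched on both strands; none overlaps another here. Ankrd1, a muscle ankyrin repeat gene widely used as a YAP target, was 10.85 in AZD1208 2 and 7.18 to 8.45 elsewhere. Sprr1a, a cornified envelope gene, was 10.51 in AZD1208 2 and 6.66 to 7.47 elsewhere.
Acta2, chr19:34255374-34255573, minus strand: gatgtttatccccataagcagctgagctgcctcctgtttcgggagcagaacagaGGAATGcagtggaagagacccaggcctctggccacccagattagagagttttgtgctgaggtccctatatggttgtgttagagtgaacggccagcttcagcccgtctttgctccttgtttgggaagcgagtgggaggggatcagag
Ankrd1, chr19:36119845-36120044, minus strand: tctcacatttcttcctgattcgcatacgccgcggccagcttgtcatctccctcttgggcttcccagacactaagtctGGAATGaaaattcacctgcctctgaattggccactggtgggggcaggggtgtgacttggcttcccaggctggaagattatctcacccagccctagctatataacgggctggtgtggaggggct
Sprr1a, chr3:92485882-92486081, minus strand: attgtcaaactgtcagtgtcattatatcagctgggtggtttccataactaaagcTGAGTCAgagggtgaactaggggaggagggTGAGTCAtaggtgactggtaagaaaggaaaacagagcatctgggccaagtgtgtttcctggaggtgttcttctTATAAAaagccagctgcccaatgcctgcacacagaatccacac
Saa3, chr7:46715677-46715876, minus strand: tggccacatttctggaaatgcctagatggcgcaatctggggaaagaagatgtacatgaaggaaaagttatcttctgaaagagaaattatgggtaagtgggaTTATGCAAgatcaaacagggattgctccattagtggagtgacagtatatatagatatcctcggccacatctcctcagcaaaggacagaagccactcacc

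The GGAATG match lies 146 bases before the start in Acta2 and 123 bases before it in Ankrd1. Sprr1a has TGAGTCA at 146 and 116 bases and TATAAA at 43 bases before its start. Saa3 has TTATGCAA, a TTGCNNAA match on the opposite strand, at 99 bases. Over the 250 bases upstream of the start, GGAATG was found in 5 of the 21 genes of the group with a listed promoter (23.8%) and in 11.1% of the 11385 ranked genes with one. TGANTCA was found in 3 of 21 (14.3%) against 4.68%, TTGCNNAA in 3 of 21 (14.3%) against 7.44%, and TATAAA in 4 of 21 (19%) against 7.19%. Among the 74 of the 100 genes with a promoter, TATAAA was present in 20.3% and GGAATG in 16.2%. A match is a string of letters in this window, and binding was not measured.

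In the 53-gene group, 44 genes had a promoter, with GGAATG in 15.9%, TGANTCA in 9.09%, TTGCNNAA in 9.09% and TATAAA in 18.2%. Ogn is shown as the gene of that group of highest SD with a GGAATG match, and Agt for its TATAAA. Agt encodes angiotensinogen, the precursor of the angiotensin peptides. It was 11.45 in vehicle 1, 11.12 in AZD1208 2 and 10.85 in AZD1208 1, against 7.69 to 9.07 in the other lines and 6.98 in the parental line. The matches lie 86 bases (Ogn) and 30 bases (Agt) before the start.
Ogn, chr13:49607815-49608014, plus strand: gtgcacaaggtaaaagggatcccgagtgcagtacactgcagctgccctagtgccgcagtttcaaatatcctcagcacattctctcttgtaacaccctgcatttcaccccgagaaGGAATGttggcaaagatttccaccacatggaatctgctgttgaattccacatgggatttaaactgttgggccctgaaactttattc
Agt, chr8:124569707-124569906, minus strand: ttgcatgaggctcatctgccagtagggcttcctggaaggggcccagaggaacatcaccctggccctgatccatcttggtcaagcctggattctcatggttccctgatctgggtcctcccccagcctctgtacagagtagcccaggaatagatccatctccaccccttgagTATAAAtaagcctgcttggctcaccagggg

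The inflammatory members of the 32-gene group were not alike in every line. Saa3, an acute phase serum amyloid protein, was 11.13 in vehicle 1, 11.12 in vehicle 2 and 11.29 in AZD1208 2. It was 7.46 in vehicle 3, 8.97 in AZD1208 1 and 8.33 in AZD1208 3, and the parental mean of 6.48 lay below every line. Lcn2, the iron-siderophore binding protein lipocalin-2, had the same 3 high lines, from 10 in vehicle 1 to 11.35 in AZD1208 2, against 7.37 to 8.45. Cxcl5, a neutrophil chemokine, was high in vehicle 2 (10.84) and AZD1208 2 (10.58) and lowest in vehicle 1 (7.13). Ccl9, a monocyte chemokine, was high in AZD1208 2 (10.89) and vehicle 1 (9.81) and lowest in AZD1208 1 (6.41). AZD1208 2 was thus high for all 4. Vehicle 1 and vehicle 2 were both high for Saa3 and Lcn2, and differed for Cxcl5 and Ccl9. Serping1, the complement C1 inhibitor, was 11.40 in AZD1208 2, 9.47 in AZD1208 3, 8.76 in vehicle 2 and 5.93 in AZD1208 1, a 44.2-fold range.

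The 9-gene group was low in vehicle 1, AZD1208 1 and AZD1208 2, with mean deviations of -1.44, -0.81 and -1.02. The other lines averaged 1.29 (vehicle 2), 1.12 (vehicle 3) and 0.86 (AZD1208 3), and the parental line 1.96. Vehicle 1, AZD1208 1 and AZD1208 2 were the 3 lowest lines in 8 of the 9 genes, where 10% of all ranked genes had that order. That count is high by construction because the group was formed on correlation over these lines. The parental level was above all lines in 4 of the 9, against 10.9% of all ranked genes. Psca, a surface protein of prostate and other epithelia, was 10.11 in vehicle 2, 8.85 in vehicle 3 and 9.86 in AZD1208 3, against 6.98 to 7.04 in the other 3 lines and 11.31 in the parental line. Nrn1 (neuritin) was 7.71 in vehicle 1, 9.71 in AZD1208 1 and 9.52 in AZD1208 2, and 10.94 to 11.24 in the others. Apcdd1, an inhibitor of Wnt signalling, was 7.85 to 9.53 in the low lines and 10.87 to 11.18 in the others. Kcne3, a potassium channel subunit, was 6.14 to 6.80 against 8.58 to 9.14. These 4 genes, which are among those 8, had no overlap between the same 3 low and 3 high lines.

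Krt4 and Krt6a, keratins of stratified epithelium, were 12.79 and 11.68 in the parental line and lower in every recurrent line. Among the lines Krt4 ran from 6.01 in AZD1208 2 to 9.24 in vehicle 2, and Krt6a from 5.07 in AZD1208 2 to 8.48 in vehicle 2. Rab25, a small GTPase of epithelial membrane recycling, had a different order. It was 10.45 in vehicle 3, 8.26 in vehicle 2 and 7.05 in AZD1208 3, and 5.95 to 6.53 in the other 3 lines. Its SD went from 1.71 to 0.93 without vehicle 3.

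The last 6 of the 100 genes formed sets of 3, 2 and 1. Crtap, which encodes a cartilage-associated partner of collagen prolyl hydroxylation, was 5.77 in vehicle 1 and 8.59 to 10.43 in the other lines. Pcbd1, an enzyme that recycles the cofactor tetrahydrobiopterin, was 5.5 in vehicle 1 and 8.74 to 9.97 elsewhere. The parental levels of Crtap and Pcbd1, 9.63 and 8.94, lay with the other 5 lines, and their SDs without vehicle 1 were 0.76 and 0.55. Chad (chondroadherin, a matrix protein) was 10.24 in AZD1208 1 and 7.09 to 8.51 elsewhere. Gpx3, the secreted glutathione peroxidase, was 5.43 in AZD1208 2 and 8.16 to 9.75 elsewhere. Il18r1, an interleukin-18 receptor chain, was also lowest in AZD1208 2 at 5.59 and highest in vehicle 2 at 9.05. Xdh, xanthine dehydrogenase, was 8.99 in vehicle 3 and 9.09 in AZD1208 2, against 6.5 to 7.5.

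A gene in which 1 line stood at least 1 above the next line was found in 194 cases (1.33% of ranked genes), and at least 1 below the next in 78 (0.535%). AZD1208 2 held 128 of the 194 and vehicle 1 held 38, followed by vehicle 2 (13), vehicle 3 (8), AZD1208 1 (6) and AZD1208 3 (1). Of the 78 low cases, AZD1208 3 held 30, vehicle 1 held 20, AZD1208 1 held 16, AZD1208 2 held 9, vehicle 3 held 2 and vehicle 2 held 1. The examples that follow were chosen after their values were seen. In vehicle 2, Padi2, a peptidylarginine deiminase, was 12.28 against 9.68 to 10.85. In vehicle 3, Wnt4, a Wnt ligand, was 11.26 against 8.66 to 10.23. In AZD1208 1, Fabp4, a fatty acid carrier, was 6.28 against 8.22 to 8.58, and the transcription factor Gata6 was 6.45 against 8.02 to 9.12. In AZD1208 3, the surface protein Cd109 was 7.26 against 8.64 to 9.87. Vehicle 1 and AZD1208 2 therefore hold most of the private high genes, and AZD1208 3 has mainly low ones. Some low genes of AZD1208 3 also varied between the technical arrays. The technical SD was 0.52 for Rbm12b2 and 0.28 for Zfp617, but 0.08 for Cd109 and 0.04 for Ccdc25, beside a median of 0.09 over ranked genes. The part of technical variation in these low genes was not tested.

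**Figure D3:**
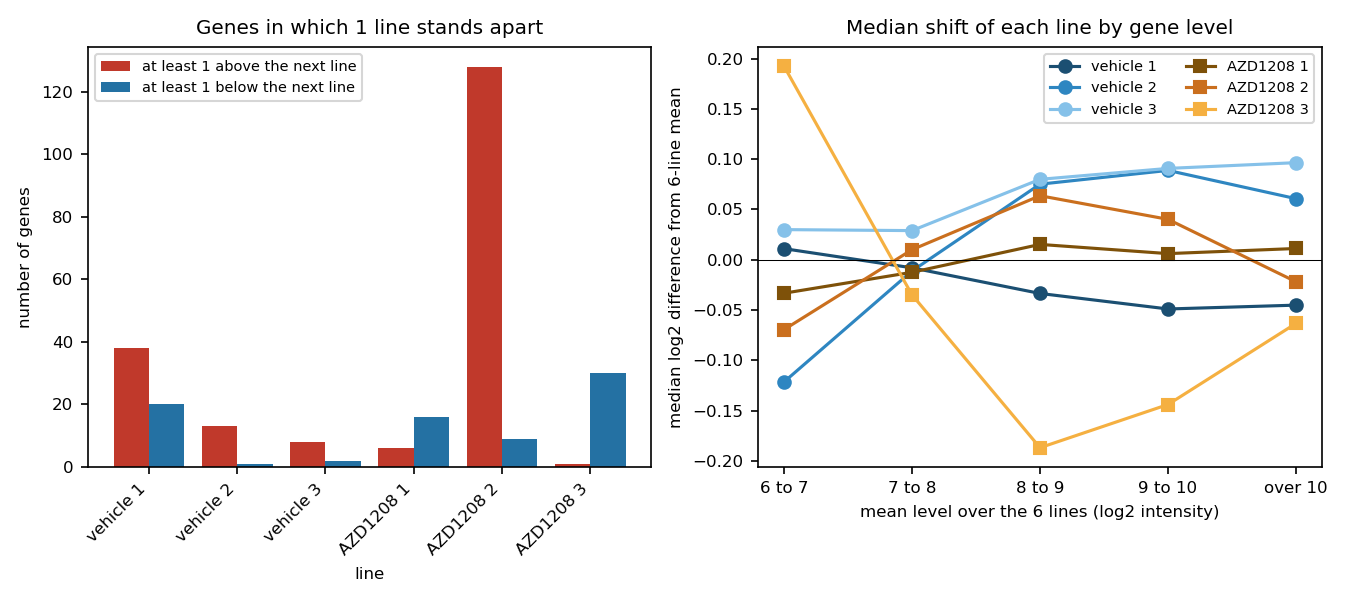
The left panel counts, for each line, the genes in which it stood at least 1 above (red) or 1 below (blue) the next line; AZD1208 2 holds 128 high genes and AZD1208 3 holds 30 low genes. The right panel plots each line's median log2 difference from the 6-line mean in 5 bins of gene level; AZD1208 3 is at 0.19 for levels of 6 to 7 and at -0.19 for levels of 8 to 9.

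AZD1208 3 also stood apart with gene level. For the 4538 genes with a mean between 6 and 7 its median deviation was 0.19, and for the 2568 genes between 8 and 9 it was -0.19. The other lines lay between -0.12 and 0.03 in the lower bin and between -0.03 and 0.08 in the higher. After quantile normalization AZD1208 3 was at 0.13 in the lower bin and 0.004 in the higher. Several lists that varied together were dim and highest in this line, and these are given with their levels below.

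Distances between lines did not follow a single split. The fewest genes at least 1 apart were counted for vehicle 3 and AZD1208 3 (156) and for vehicle 2 and vehicle 3 (173). By the median absolute difference over ranked genes the nearest pair was another, vehicle 1 and AZD1208 1 (0.18). On that measure vehicle 2 and vehicle 3 were at 0.19 and vehicle 3 and AZD1208 3 at 0.24. Vehicle 1 and AZD1208 1 were 293 genes apart, AZD1208 2 and AZD1208 3 were 1435 apart, and vehicle 1 and AZD1208 3 were 1055 apart. AZD1208 1 was nearer to vehicle 2 (382) and vehicle 3 (432) than to AZD1208 2 (615), and vehicle 2 was nearer to AZD1208 2 (537) than to AZD1208 3 (582). Against the parental mean, 1272 genes differed by at least 1 in AZD1208 2, 1154 in vehicle 1 and 671 in AZD1208 1, and 308, 270 and 194 in AZD1208 3, vehicle 2 and vehicle 3.

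Of 46 gene lists, 45 had a ranked member, with 713 ranked entries among 954. The SD of the list mean over the 6 lines ran from 0.07 to 0.62, and 10 lists were at 0.25 or more. In 27 lists no member had a SD of 1 or more, which 1.09% of all ranked genes had. The median member SD was 0.5 or more in 3 lists: acute phase and complement genes (0.79), basal markers (0.80) and NF-kB targets (0.54), against 0.24 over all ranked genes.

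**Figure D4:**
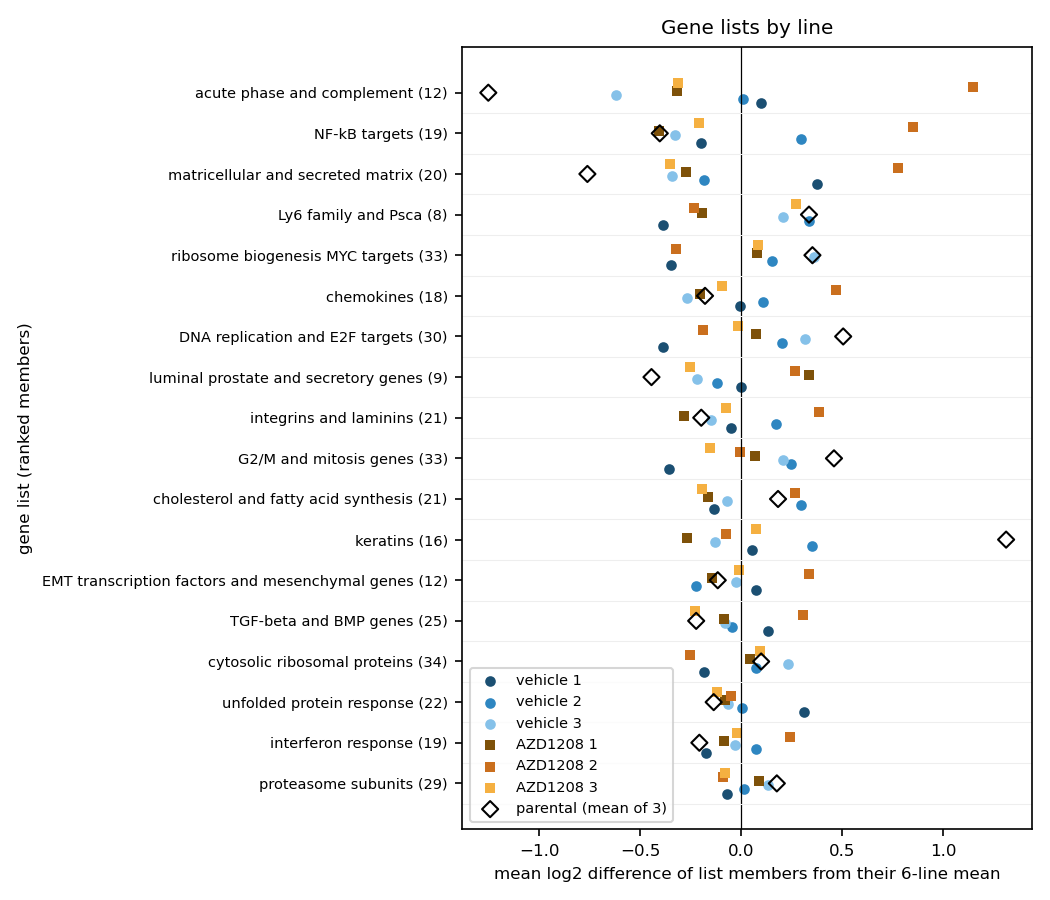
Each row is a gene list (number of ranked members in brackets) and each symbol the mean log2 difference of its members from their 6-line mean in 1 line (circles vehicle, squares AZD1208) or the parental mean of 3 arrays (open diamonds). AZD1208 2 lies farthest right for acute phase, NF-kB and matricellular genes, and vehicle 1 farthest left for replication, mitosis and ribosome biogenesis genes.

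Inflammatory lists were highest in AZD1208 2. The 12 acute phase and complement genes averaged 1.15 above their 6-line mean in AZD1208 2 and -0.62 in vehicle 3, with the other lines between -0.32 and 0.10 and the parental line at -1.25. The 19 NF-kB targets averaged 0.85 in AZD1208 2, 0.30 in vehicle 2 and -0.41 to -0.20 in the other 4. Their median pairwise correlation was 0.56, and 4 had a SD of 1 or more. Among them Tnfaip3, the ubiquitin-editing brake on NF-kB, was 10.36 in AZD1208 2, 9.56 in vehicle 2 and 7.33 in vehicle 1. Nfkbie, an inhibitor of NF-kB, was 9.93 in AZD1208 2 and 6.93 to 8.11 in the others. Without AZD1208 2 the SD of the list mean went from 0.62 to 0.36 for acute phase genes and from 0.48 to 0.27 for NF-kB targets. Hp, the haptoglobin gene, behaved differently: it was 10.13 to 12.26 over the lines, highest in AZD1208 1, and 6.73 in the parental line.

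Chemokines varied without a common order. The list mean had a SD of 0.27 over the lines, or 0.15 without AZD1208 2, and its 18 genes had a median pairwise correlation of 0.11. Cxcl15 was 12.81 in vehicle 1 and 12.53 in AZD1208 1 and 10.53 to 10.67 in the other lines. Cxcl17, another mucosal chemokine, had the same 2 high lines, 9.05 and 8.80, against 6.92 to 7.33. Their high lines thus differed from those of Cxcl5 and Ccl9. The 19 interferon response genes had a list-mean SD of 0.14 and a median member SD of 0.33, against 0.24 over all ranked genes. None had a SD of 1 or more, which 1.09% of all ranked genes had.

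The 20 matricellular and secreted matrix genes averaged 0.77 in AZD1208 2 and 0.38 in vehicle 1, -0.35 to -0.18 in the other lines and -0.76 in the parental line. Thbs2, Ogn, Postn and Fbln5 had a SD of 1 or more. Fbln5, an elastic fibre protein, was 9.51 in AZD1208 2, 8.51 in vehicle 1 and 6.67 to 7.18 in the other lines. The median member correlation was 0.33 and the SD of the list mean 0.47, or 0.30 without AZD1208 2. Among 21 integrin and laminin genes, Itgb3, an integrin chain for vitronectin and other matrix proteins, was 7.46 in vehicle 1, 7.64 in AZD1208 1 and 8.99 to 9.91 in the other 4. Lamb1, a laminin chain, was 8.78 in AZD1208 2 and 6.33 to 7.16 elsewhere.

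Fibroblast markers were read beside these matrix genes. The mean level of the 12 fibroblast markers was 7.71 in AZD1208 2 and 6.98 to 7.27 in the other lines, and 6.63 in the parental line. Postn, Pdgfrb and Dcn were highest in AZD1208 2, Pdgfra (10.03) and Fbln2 (9.36) were highest in vehicle 1, and Twist2 (8.38) and Thy1 (6.82) were lowest in AZD1208 2. Pdgfrb, a receptor of platelet-derived growth factor, was 9.78 in AZD1208 2 and 6.49 to 7.22 elsewhere. The collagen genes Col1a1 (7.06 to 7.47) and Col3a1 (6.32 to 6.86) and the markers Lum (4.40 to 4.71) and Fap (4.69 to 4.89) had narrow ranges and were highest in other lines. The part of fibroblasts in the matrix genes was not tested. Among the 8 myeloid markers, Ptprc, a marker of all leukocytes, was 4.49 to 5.12 and lowest in AZD1208 2. Cd68, of macrophage lysosomes, was 8.08 in AZD1208 2 and 7.11 to 7.57 in the other lines. Lyz2, lysozyme of myeloid cells, was 7.10 in vehicle 1, 6.97 in vehicle 2 and 6.42 in AZD1208 2 but 4.74 to 5.18 in the other lines. The mean level of the 8 was 6.41 in both vehicle 1 and vehicle 2, 6.23 in AZD1208 2 and 5.95 to 6.04 in the other lines, and the mean deviation of the 4 ranked ones was highest in AZD1208 2, at 0.12. The part of myeloid cells in the inflammatory genes was not tested.

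Markers of prostate epithelium were read as a check of the labelled cell type. Foxa1 (11.71 to 12.13) and Hoxb13 (8.44 to 8.92), transcription factors of prostate epithelium, and the claudin Cldn3 (11.65 to 12.43) were present in all 6 lines within narrow ranges. Krt8, a luminal keratin, ran from 8.24 in AZD1208 2 to 10.44 in AZD1208 1. Epcam (4.51 to 5.06) and probasin, Pbsn (3.64 to 4.36), were dim in every line. Other markers lay near the array medians of 6.22 to 6.36. Cdh1 was 6.45 to 6.96, Krt18 6.47 to 6.91 and Krt19 6.59 to 6.96. Tmprss2 was 5.83 to 6.49 and Cldn7 5.70 to 5.97. Basal markers had a list-mean SD of 0.51 from 4 ranked genes, led by Krt15 and Krt6a. The lines highest for Krt15, vehicle 1 and AZD1208 2, were the lowest for Krt6a.

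Replication, mitosis and ribosome biogenesis genes followed one another closely within each list. Their median member SDs were 0.33, 0.34 and 0.35, above the 0.24 of all ranked genes. The 30 DNA replication and E2F targets averaged -0.39 in vehicle 1, -0.19 in AZD1208 2 and 0.31 in vehicle 3, with a median pairwise correlation of 0.71. The 33 ribosome biogenesis genes, MYC targets by function, averaged -0.35 in vehicle 1, -0.32 in AZD1208 2 and 0.36 in vehicle 3, with a correlation of 0.68. The 33 mitosis genes averaged -0.36 in vehicle 1 and 0.24 in vehicle 2, with a correlation of 0.63. Their median levels were 10.3, 10.6 and 10.3, in that order. Ranked genes with a mean over 10 had a median deviation of -0.05 in vehicle 1 and 0.10 in vehicle 3. After quantile normalization the list means in vehicle 1 were -0.36, -0.33 and -0.33. The part of that level-dependent shift in these lists was not tested. None of these 3 lists held a gene with a SD of 1 or more, which 1.09% of all ranked genes had. Mcm2, a subunit of the replicative helicase, was 10.45 in vehicle 1, 10.78 in AZD1208 2, 10.98 in AZD1208 1 and 11.52 to 11.58 in the other 3 lines. Rrp12, a ribosome assembly factor, was 8.15 in vehicle 1, 8.32 in AZD1208 2 and 9.93 in vehicle 3. Utp20, a factor of the small subunit processome, was 8.19 in vehicle 1 and 9.21 to 9.93 elsewhere.

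Myc itself varied by 1.94-fold. It was 9.38 in vehicle 1 and 9.43 in AZD1208 1, 9.79 in AZD1208 2, 9.92 in vehicle 3, 10.30 in AZD1208 3 and 10.34 in vehicle 2 (SD 0.41, rank 2272). Whether its probe set also reads the MYC transgene was not tested. Pim1 had a SD of 0.35 (8.87 to 9.81), Pim2 of 0.15 (7.65 to 7.99) and Pim3 of 0.20 (9.38 to 9.92). The SD of Pim3 over the lines was below its technical SD of 0.24.

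Cytosolic ribosomal protein genes (34) averaged -0.26 in AZD1208 2 and -0.18 in vehicle 1 against 0.23 in vehicle 3, with a median correlation of 0.60. Rps24, of the small ribosomal subunit, was 9.27 in AZD1208 2, 9.74 in vehicle 1 and 10.56 to 10.97 in the others. Glycolysis and hypoxia genes had the lowest list-mean SD, 0.07, and proteasome subunits had 0.10. The 21 cholesterol and fatty acid synthesis genes averaged 0.30 in vehicle 2 and 0.26 in AZD1208 2 and -0.20 to -0.07 in the others. Hmgcs1, an early enzyme of the sterol pathway, was 10.09 in AZD1208 2, 9.80 in vehicle 2 and 8.41 to 9.19 in the others.

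The unfolded protein response list had its highest mean in vehicle 1. Its 22 genes averaged 0.31 in vehicle 1 and -0.12 to 0.005 in the other lines. Dnajb9, an ER co-chaperone, was 10.62 in vehicle 1, 9.73 in AZD1208 1 and 8.58 to 8.85 elsewhere. Sdf2l1, another ER chaperone partner, was 11.84 in vehicle 1 and 10.39 to 10.91 elsewhere. Without vehicle 1 the SD of the list mean went from 0.16 to 0.05.

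Androgen-responsive and luminal genes were not coordinated. The 20 androgen receptor targets had a median pairwise correlation of 0.02 and a list-mean SD of 0.14. Steap4, a metalloreductase, was 12.64 in vehicle 1, 12.30 in AZD1208 1 and 12.00 in AZD1208 2 against 10.33 to 11.23, and 8.47 in the parental line. Mme, the surface peptidase neprilysin, had the same 3 high lines (10.91 to 11.83, against 9.50 to 10.31). Slc38a4, an amino acid transporter, was high in vehicle 1 (10.21), AZD1208 1 (10.09) and vehicle 3 (9.69), against 7.78 to 8.19. Acpp, the prostatic acid phosphatase gene, was 8.53 in AZD1208 1 and 5.68 to 6.71 elsewhere.

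Some lists with high internal correlation held mostly dim genes and had their highest mean in AZD1208 3. The 23 collagens had a median correlation of 0.69, with 15 members at a mean level under 7. The 10 imprinted and oncofetal genes had 0.70, with 7 under 7, and the 11 neuroendocrine genes 0.60, with 7 under 7. Their list means in AZD1208 3 were 0.20, 0.26 and 0.23, beside the shift of 0.19 in all ranked genes with a mean of 6 to 7. After quantile normalization they were 0.21, 0.26 and 0.22. The part of that level-dependent shift in these lists was not tested.

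Genes next to each other in the RefSeq order (assembly GRCm38.p6, used for order only) were scanned in windows of 11 ranked genes, a choice made after seeing the data. The median difference of a line from the 6-line median peaked in 3 runs. Each run was picked for these values, so its counts of highest lines are high by construction. The highest window, 1.11, was in AZD1208 2 and centred on Ccdc126. It lay within a run of 21 genes from Repin1 to Hnrnpa2b1, of which AZD1208 2 was the highest line in 15. Igf2bp3, an RNA-binding protein of fetal tissue, was 12.13 in AZD1208 2 and 9.28 to 10.21 elsewhere. Fam221a was 9.69 against 7.02 to 7.94, and Osbpl3, an oxysterol-binding protein relative, 10.45 against 8.37 to 9.05. Beyond the run, Skap2 (11.25 against 8.31 to 9.45) and Hoxa5 (9.18 against 6.79 to 7.55) were also highest in AZD1208 2.

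The second run held 15 genes from Pcyt1a to Heg1, with a window of 0.93 in vehicle 1 around Snx4, and vehicle 1 was the highest line in 11. Zfp148, a zinc finger factor, was 10.51 in vehicle 1 and 8.22 to 9.80 elsewhere. No member had a SD of 1 or more, which 1.09% of all ranked genes had. Itgb5, the integrin beta gene just beyond Heg1, was 13.09 in vehicle 1 and 11.60 to 12.37 elsewhere. In vehicle 1 the difference from the 6-line median was 1.39 for Zfp148, 1.14 for Fyttd1 and 1.02 for Snx4.

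The third run, 8 genes from Secisbp2l to Usp50, split the lines. Vehicle 2, vehicle 3 and AZD1208 3 were the 3 highest lines in 7 of the 8 genes, where 10% of all ranked genes had that split. Usp8, a deubiquitinase of endosomes, was 12.01, 12.13 and 12.02 in those lines and 9.96, 10.54 and 10.25 in vehicle 1, AZD1208 1 and AZD1208 2. Dtwd1 was 10.54, 11.28 and 10.77 against 8.37, 9.19 and 8.14, and it was also in the 9-gene group. The flanking genes Dut, which encodes dUTPase, and Ap4e1, an adaptor complex subunit, had the same split: Dut 12.31 to 12.60 against 10.35 to 11.16, and Ap4e1 9.87 to 10.46 against 7.91 to 8.81. The parental line was a median of 1.27 below the 6-line median over the run, and 9.72 for Usp8 and 8.60 for Dtwd1. Secisbp2l had 1 deposited value, 8.69, in all 3 low lines. DNA copy number was not measured here.

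**Figure D5:**
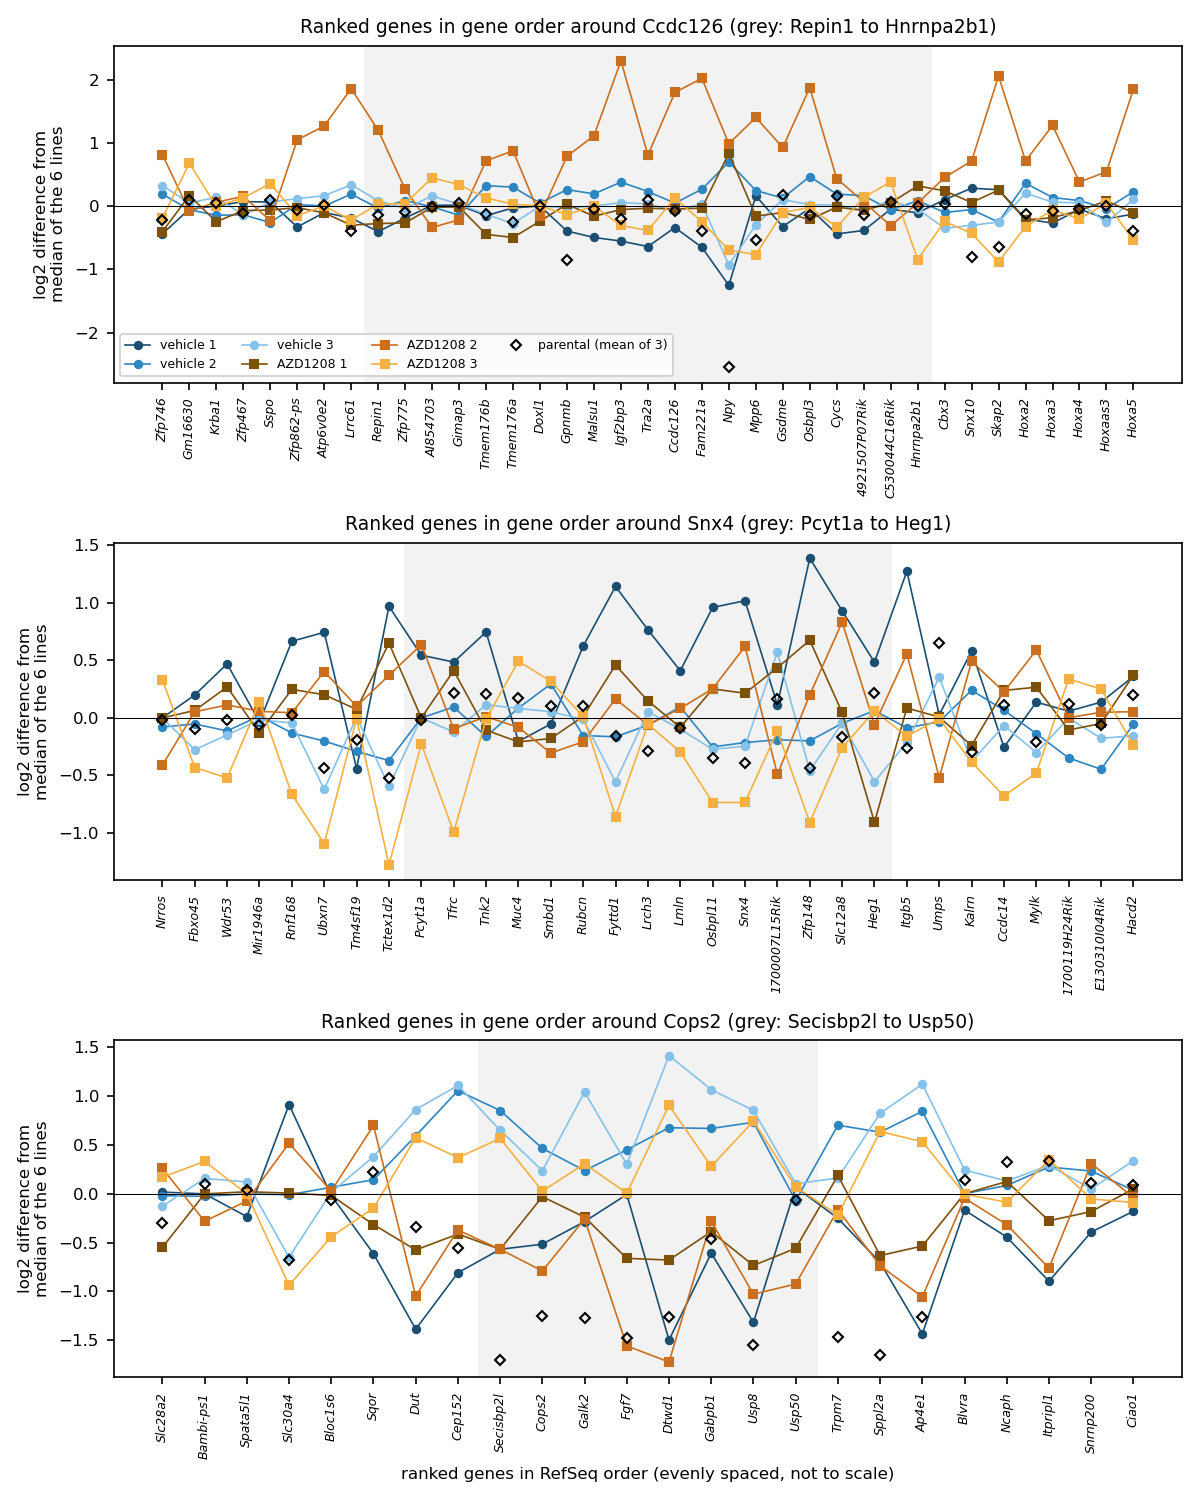
Each panel plots ranked genes in RefSeq order (evenly spaced) against the log2 difference of each line from the median of the 6 lines, with diamonds for the parental mean of 3 arrays and grey for the run. AZD1208 2 is the highest line for 15 of the 21 grey genes of the upper panel and vehicle 1 for 11 of 15 in the middle panel. In the lower panel vehicle 2, vehicle 3 and AZD1208 3 are the 3 highest lines for 7 of the 8 grey genes, Usp50 being the exception. That split is found in 10% of all ranked genes.

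Windows that were low in 1 line were mostly those of AZD1208 3. A window at -0.6 or below occurred on 13 of 20 chromosomes in AZD1208 3 (103 of 14284 windows), with the lowest, -1.03, at Zfp948, a zinc finger gene. In the other 5 lines such windows were found on 0 to 2 chromosomes. The part of technical variation in the low windows was not tested.

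Second probe sets gave a reading that the ranking did not use. Of 938 ranked genes with a second probe set, 622 had both at 6 or more, and none of these had a SD of 1 or more. In the 40 with a SD of 0.5 or more, the second probe set had a median SD of 0.34 and a median correlation of 0.87 with the first. The 327 with a SD under 0.25 had a median correlation of 0.60. Among the 100 genes only Aldh6a1, a mitochondrial dehydrogenase of valine breakdown, had a second one. It had a SD of 0.89 against 1.16 for the first, at a mean level of 5.45, and the pair correlated at 0.97.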

How the data were processed

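Total RNA of 6 recurrent MYCCaP lines and of the parental line (3 technical arrays) was measured on the Affymetrix Mouse Gene 2.0 ST platform. The authors deposited a log2 intensity for every probe set on every array. Per the submitters' processing notes the authors used oligo, and its settings are not stated there, so the deposited scale was kept. Of 41345 probe sets, 23521 had 1 gene symbol in the platform annotation, and those with several (1814) or none were left out. A gene took the probe set of highest mean over all 9 arrays.

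Genes were ranked by SD over the 6 lines with pandas 2.3.3 and numpy 2.4.6, and the 100 of highest SD were clustered with scipy 1.17.1 by average linkage on 1 minus Pearson r, with groups separated at 0.5. The members, lists and named genes were chosen with earlier results of these data known. Genes named are the 30 of highest SD (predicted and small RNA symbols passed over), up to 4 of highest SD per list described, up to 6 per group, and Myc, Pim1, Pim2 and Pim3. Another gene of that fixed set was not analysed here. Genes named as private to a line, in neighbouring runs or for their promoters were chosen after their values were seen. RefSeq (GRCm38.p6) gave gene order for 14498 ranked genes and promoters for 11385. The ranking code was tested on simulated data. Alternatives were quantile normalization, median centring, SD within treatments, the mean of a gene's probe sets, other floors, the median absolute deviation and leaving out each array. The number of arrays limits the precision.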

Additional observations from a re-analysis of the deposited data

Results flagged for a closer look

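Each of the 30 named genes and 45 gene lists was examined for 1 line far from the other 5, by the gap to the nearest line as a share of the whole range. Chance alone gives such a gap in about 1 in 20 groups of unselected values. The 30 genes were chosen for a high SD over these same lines, so that rate does not apply to them. The gap was large for 4 genes and 2 lists, and 2 of 45 lists is near that rate. These results are a description only. Acta2 in AZD1208 2 had a gap of 0.803 of its range, with 11.87 against 8.0 in the next line. Glrb in vehicle 1 had 0.77 (11.86 against 6.30), and Ucma in vehicle 1 had 0.722 (11.60 against 7.84). Glrb reached the floor for ranking only through vehicle 1. Pcbd1 was low in vehicle 1, with 0.724 (5.5 against 8.74).

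The unfolded protein response list was high in vehicle 1, with a gap of 0.711 and list means of 0.31 against 0.005 in the next line. The adipocyte marker list was low in AZD1208 1, with 0.637 and list means of -0.52 against -0.04. That list has 4 ranked genes, and Fabp4 was 6.28 in AZD1208 1 and 8.22 to 8.58 in the other lines, while Adipoq was 4.92 to 5.10 in all 6.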

How the results depend on the processing

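No paired analysis was possible because the results come from no test between groups. The count of genes with a SD of 1 or more, 159, was 155 after quantile normalization, 163 after median centring, 206 with the SD taken within treatments, 165 with a floor of 5 and 137 with a floor of 7. Leaving out 1 line gave 126 (without AZD1208 2) to 190 (without AZD1208 1), or 0.861% to 1.30% of ranked genes. The ratio of median SDs, 2.61, ran from 2.31 to 3.77 when 1 array was left out, and the count above the technical SD from 12536 to 13795. Of the 100 genes, 68 (without AZD1208 2) to 93 were shared when 1 line was left out, 96 after quantile normalization and 61 when ranked by the median absolute deviation, which gives little weight to a single line. Lists with a SD of the list mean of 0.25 or more numbered 20 with a floor of 7, which leaves fewer genes per list, against 10, and 9 to 15 when 1 line was left out. The SD of 6 named genes moved by more than its approximate standard error without vehicle 1, of 5 without AZD1208 2 and of 1 (Rab25) without vehicle 3. Without AZD1208 2 the SD of 9 list means moved by more than its approximate standard error. Under quantile normalization and median centring 0 of the 30 named genes moved.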

Other observations

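The following 4 signalling and enzyme genes of the 53-gene group, chosen after their values were seen, were higher in vehicle 1, AZD1208 1 and AZD1208 2 than in the other 3 lines. Btc, which encodes the EGF receptor ligand betacellulin, was 10.30 in vehicle 1, 9.34 in AZD1208 1 and 9.03 in AZD1208 2, against 6.68 to 7.0 in the other lines. Vegfd, a growth factor for lymphatic vessels, was 9.26, 7.21 and 8.91 in those lines against 5.68 to 6.23. Timp4, an inhibitor of metalloproteases, was 8.67, 9.03 and 7.12 against 5.30 to 6.44. Cbr2, a carbonyl reductase, was 10.90, 10.83 and 11.45 against 8.78 to 9.03, and the parental level of 7.92 lay below every line.

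Cytochrome and inflammatory enzymes in the 32-gene group had other second lines. Cyp1b1, a cytochrome P450 enzyme, was 11.22 in AZD1208 2, 9.84 in vehicle 1 and 8.95 in vehicle 3, and 7.23 to 8.24 in the others. Nos2, the inducible nitric oxide synthase, was 9.75 in AZD1208 2 and 6.66 to 7.58 in the others. Syt13, a synaptotagmin, was 10.37 in AZD1208 2 and 10.03 in vehicle 2, against 7.36 to 8.66.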
